A study of Homo sapiens with 6 samples.

Results

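The genes described here are 9 keratins and vimentin, the intermediate filament genes that are commonly read as labels of an epithelial or a mesenchymal state. They were taken by name from the list KRT5, KRT7, KRT8, KRT17, KRT18, KRT19, KRT23, KRT80, KRT81 and VIM, using the entry on a primary chromosome, and make up 10 of the 41497 named entries of the deposited tables. RNA-seq was done on HK-2 cells, an immortalised human line derived from the proximal tubule of the kidney, which the labels give as wild type. The study sequenced these cells to look for transcriptional regulators that respond to TGF-β1, a cytokine that drives kidney fibrosis. There were 3 control libraries of untreated cells and 3 libraries of cells given TGF-β1, and all 6 were labelled 24 h. The growth medium contained fetal bovine serum per the labels, whereas the methods of the study describe TGF-β treatment in serum-free medium, with a dose that is stated for such experiments in general. Neither source gives the serum state of the control cells, and the labels give no dose for these libraries. All values come from a single cell line, and the labels do not say whether libraries of a group came from separate cultures, so the p-values measure the spread between these libraries, which may be technical.

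Intermediate filaments are the tension-bearing cables of the cytoplasm. Keratins form them as obligate pairs of a type I (acidic) and a type II (basic) chain, so a cell needs chains of both kinds, and unpaired keratin chains are degraded. KRT8 with KRT18 is the first pair of simple epithelia, including renal tubules, and KRT7 and KRT19 join it in ducts and in injured or regenerating tubules. Vimentin is a type III protein that assembles with itself and is typical of mesenchymal cells, of tubule cells under repair and of most cultured cells.

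Libraries held 21.9 to 26.9 M (megacounts). Levels are given as CPM, counts per megacount of the library total multiplied by its TMM scaling factor. These factors were 1.03 to 1.05 in the controls and 0.958 to 0.972 with TGF-β1. Across genes, log2 CPM correlated at 0.992 to 0.994 within groups and at 0.969 to 0.973 between groups. All 8 TGF-β target genes used as a check of the treatment were higher with TGF-β1, from a log2 fold change of 1.08 for SKIL to 2.60 for PMEPA1. Markers of the labelled cell type were present in part. The proximal tubule regulator PAX8 averaged 251 CPM in controls and 151 CPM with TGF-β1, whereas the endocytic receptor LRP2 and the anion transporter SLC22A6 had 0 reads and the cadherin CDH1 had 6 and 3 reads in the control and TGF-β1 groups. In bulk RNA, fewer cells of a type and less RNA per cell cannot be told apart.

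Of the 10 genes, 6 were higher with TGF-β1, 1 was lower and 3 had no read in any library. KRT7 rose the most, 5.09-fold, and VIM, KRT8 and KRT18 rose 1.81-, 1.57- and 1.50-fold. KRT81 rose 2.67-fold at a very low level, and the rise of KRT80 was 1.14-fold. KRT19 was the only one of the 7 detected genes that fell, to 0.395 of its control level. Epithelial keratins and the mesenchymal filament gene VIM thus rose in the same libraries.

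These calls came from an edgeR quasi-likelihood F test of the raw counts of 14860 genes that passed a minimum count filter, with a gene called at a Benjamini-Hochberg adjusted p under 0.05. All 7 detected members were called, against 44.3% of all genes tested. The 6 called higher compare with 22.2% of all genes, and the 1 called lower with 22.1%. KRT7, KRT81 and KRT19 were called with a change of at least 2-fold, which 9.06% of all genes reached. In all 7 the CPM values of the 3 TGF-β1 libraries lay entirely above or entirely below those of the 3 controls, which held for 55.6% of all genes. The median log2 fold change was 0.65 over the 7 members and 0.0063 over all genes tested. The 3 undetected members could not enter the test.

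**Figure D1:**
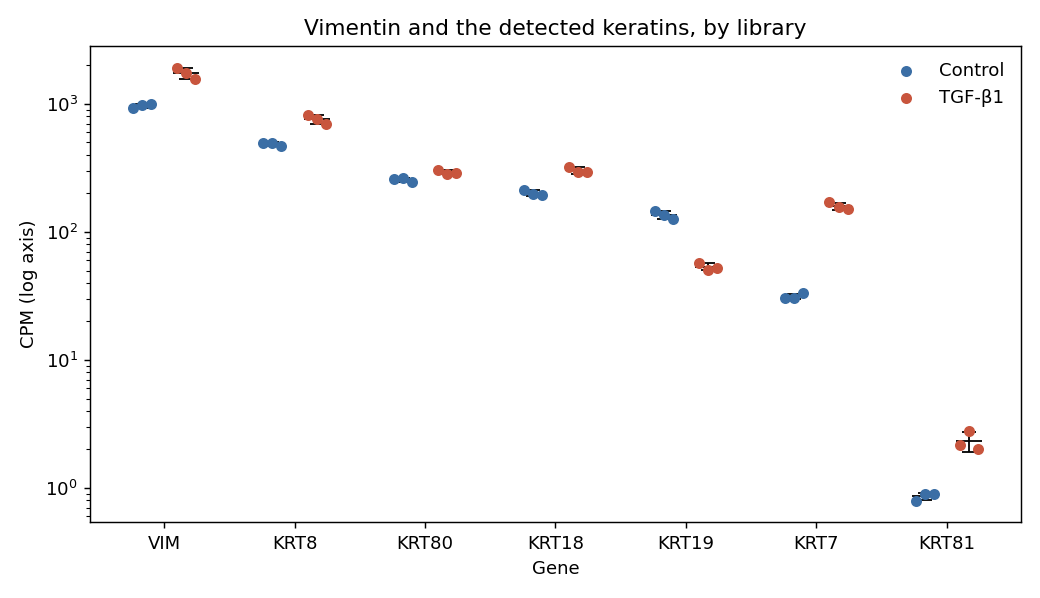
CPM (log axis) of each detected gene in the 3 control (blue) and 3 TGF-β1 (red) libraries, with black bars for the mean ± SD. The groups do not overlap for any of the 7 genes, and KRT19 is the gene whose TGF-β1 points, at 50.6 to 57.3 CPM, lie below its controls. CPM is not corrected for gene length, so levels are to be compared within a gene.

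VIM lies on chromosome 10 at 17228241 to 17237593 of GRCh38, on the plus strand. Its CPM was 922, 972 and 996 in control replicates 1 to 3 and 1923, 1733 and 1569 in TGF-β1 replicates 1 to 3. Every TGF-β1 library was above every control, and the spread was wider with TGF-β1, with replicate 1 the highest and replicate 3 the lowest. The mean went from 964 ± 38.0 to 1742 ± 177 CPM (SD, n = 3), or 0.85 ± 0.08 (SE) as a log2 fold change (edgeR adjusted p = 5.49e-06). VIM was already the most abundant of the 10 in untreated cells.

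VIM shares exon bases with VIM-AS1, an antisense RNA on the opposite strand, over 641 bases or 29.7% of its exon length. The sources used here do not say whether counting used the strand, so reads in the shared stretch cannot be divided between them. VIM-AS1 had 34, 41 and 33 reads in the controls and 73, 54 and 56 with TGF-β1, all above the control values, at a log2 fold change of 0.75 ± 0.18 (edgeR adjusted p = 0.00603). These reads are few beside the 20809 to 50075 counted for VIM. Of all runs of 150 bases in VIM transcripts, 13.2% also occur, on either strand, in transcripts of 2 other genes. VIM-AS1 holds 9.27% of the runs, and how reads there were assigned is not known.

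RefSeq promoter sequences of GRCh38.p14 were at hand for 3 of the 10 genes, VIM, KRT8 and KRT5. They are shown because these 3 stand for the mesenchymal filament that rose, the simple epithelial keratin that rose and the basal keratin with no reads. Each runs 5′ to 3′ from 250 bases before an annotated start to 50 bases after it, and capitals mark the motifs found. The VIM window is chr10:17227991-17228290 on the plus strand, the KRT8 window chr12:52926420-52926719 on the minus strand and the KRT5 window chr12:52520345-52520644 on the minus strand.
VIM: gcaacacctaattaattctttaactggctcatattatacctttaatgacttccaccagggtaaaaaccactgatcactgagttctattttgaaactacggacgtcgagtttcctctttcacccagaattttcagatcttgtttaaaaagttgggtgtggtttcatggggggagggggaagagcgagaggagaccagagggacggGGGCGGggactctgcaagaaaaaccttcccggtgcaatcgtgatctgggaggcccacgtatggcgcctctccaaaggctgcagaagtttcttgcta
KRT8: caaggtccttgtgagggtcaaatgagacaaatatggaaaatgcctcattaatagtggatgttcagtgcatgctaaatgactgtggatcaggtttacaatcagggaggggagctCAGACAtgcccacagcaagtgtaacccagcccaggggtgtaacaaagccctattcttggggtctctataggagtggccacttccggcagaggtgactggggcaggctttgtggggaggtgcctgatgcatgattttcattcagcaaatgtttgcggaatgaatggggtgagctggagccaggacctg
KRT5: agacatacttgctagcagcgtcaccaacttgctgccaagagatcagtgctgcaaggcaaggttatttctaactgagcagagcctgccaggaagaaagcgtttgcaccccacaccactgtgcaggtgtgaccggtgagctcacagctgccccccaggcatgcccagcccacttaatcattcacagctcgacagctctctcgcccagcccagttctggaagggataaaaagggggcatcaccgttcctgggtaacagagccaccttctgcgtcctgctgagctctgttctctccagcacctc
Searched on both strands were the AP-1 site (TGACTCA or TGAGTCA), the SMAD palindrome GTCTAGAC, the shorter SMAD motif (CAGACA or TGTCTG) and the GC box (GGGCGG or CCGCCC). The TATA box TATAAA was searched on the forward strand only, and none of these motifs overlapped another in the 3 windows. The VIM window held a GC box 46 bases before the start, a motif present in 45.0% of the 35116 promoters in the table. The KRT8 window held CAGACA 137 bases before the start, a motif found in 16.9% of promoters. No motif was found in the KRT5 window, and the AP-1 site, the SMAD palindrome and the TATA box, which 4.95%, 0.202% and 7.33% of promoters hold, were in none of the 3. KRT8 has several annotated starts, and which of them HK-2 cells use was not tested.

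KRT8 and KRT18 lie side by side on chromosome 12, KRT8 on the minus strand at 52897191 to 52949860 and KRT18 on the plus strand at 52948855 to 52952906. KRT8 measured 493, 499.8 and 471 CPM in the controls and 826, 765 and 701 CPM with TGF-β1. The lowest TGF-β1 library was well above the highest control. The mean went from 488 ± 15.2 to 764 ± 62.0 CPM (SD, n = 3), or 0.65 ± 0.07 as a log2 fold change (edgeR adjusted p = 1.71e-05).

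KRT18, the type I partner of KRT8, measured 214, 197 and 195 CPM in the controls and 323, 293 and 293 CPM with TGF-β1. Its groups did not overlap either. Its mean went from 202 ± 10.4 to 303 ± 17.2 CPM, or 0.58 ± 0.06 as a log2 fold change (edgeR adjusted p = 2.09e-05). KRT18 and its partner were thus both called higher, and the difference between their fold changes was not tested.

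The KRT8 and KRT18 entries share 135 exon bases on opposite strands, which is 6.01% of KRT8 and 9.02% of KRT18. Of all runs of 150 bases in their GENCODE transcripts, 2.02% of those of KRT8 and 4.31% of those of KRT18 also occur, on either strand, in the other gene. How reads there were assigned is not known, so they could be counted for either gene or for neither.

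KRT19, a type I keratin of ducts and progenitor-like epithelial cells that pairs with KRT8 or KRT7, lies on chromosome 17 at 41523617 to 41528308 on the minus strand. It measured 145, 136 and 126 CPM in the controls and 57.3, 50.6 and 52.8 CPM with TGF-β1. All TGF-β1 libraries were below all controls, by more than the spread within either group. The mean went from 136 ± 9.33 to 53.5 ± 3.39 CPM, or -1.34 ± 0.07 as a log2 fold change (edgeR adjusted p = 7.62e-08). Controls were 2.53-fold higher than TGF-β1 cells. No other entry shares exon bases with KRT19, and none of its runs of 150 bases occurs in another gene.

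KRT7, the type II keratin of ducts and collecting structures, lies on chromosome 12 at 52233243 to 52252667 on the plus strand. Its CPM was 30.4, 30.6 and 33.1 in the controls and 171, 156 and 152 with TGF-β1. The controls were nearly level, and every TGF-β1 library was far above them. The mean went from 31.3 ± 1.51 to 159.6 ± 9.79 CPM, or 2.35 ± 0.07 as a log2 fold change (edgeR adjusted p = 9.88e-10). By size of change KRT7 ranked 261 of 14860 genes.

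KRT7-AS, an antisense RNA, overlaps 221 exon bases of KRT7, or 7.61% of its length. It had 22, 19 and 20 reads in the controls and 90, 78 and 60 with TGF-β1, a log2 fold change of 1.87 ± 0.19 (edgeR adjusted p = 1.4e-05). It moved the same way as KRT7, whose own counts were 685 to 776 and 3185 to 4443, and without a known strand setting the overlapping reads cannot be assigned.

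KRT80, a type II keratin found at cell margins near desmosomes, lies on chromosome 12 at 52168996 to 52192014 on the minus strand. It measured 262, 262 and 244 CPM in the controls and 305, 286 and 287 CPM with TGF-β1. The groups were separate, with a narrow gap between control replicates 1 and 2 and TGF-β1 replicate 2. The mean went from 256 ± 10.1 to 292 ± 10.6 CPM, or 0.19 ± 0.05 as a log2 fold change (edgeR adjusted p = 0.0143). This call was lost without control replicate 3 (log2 fold change 0.16, edgeR adjusted p = 0.0656) and when libraries were scaled by total counts only (0.09, adjusted p = 0.229), a scaling that moved the median of all genes by -0.11 on the log2 scale. KRT80 ranked 8764 of 14860 genes by size of change.

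KRT81, a type II hair keratin, lies on chromosome 12 at 52285913 to 52291534 on the minus strand. It had 18, 22 and 21 reads in the controls and 56, 67 and 42 with TGF-β1. The groups did not overlap, and the TGF-β1 libraries were more spread than the controls. In CPM the mean went from 0.864 ± 0.0575 to 2.31 ± 0.407, a log2 fold change of 1.41 ± 0.21 (edgeR adjusted p = 0.00025). When the test asked for a change beyond 2-fold, KRT81 was no longer called (adjusted p = 0.172).

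The hair keratin KRT86 is a near copy of KRT81, and 25.1% of the runs of 150 bases in KRT81 transcripts also occur in KRT86, although the entries share no exon bases. KRT86 had 14, 19 and 20 reads in the controls and 24, 21 and 17 with TGF-β1, and its groups overlapped (log2 fold change 0.21 ± 0.24, edgeR adjusted p = 0.538). How reads that match both genes were assigned is not known, so the value of KRT81 is uncertain.

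KRT5 is the type II keratin of basal cells, KRT17 a type I keratin of basal and wounded epithelium, and KRT23 a type I keratin of some glandular and diseased epithelia. KRT5 lies on chromosome 12 at 52514575 to 52520394, KRT17 on chromosome 17 at 41619442 to 41624575 and KRT23 on chromosome 17 at 40922696 to 40937646. All 3 had 0 reads in each of the 6 libraries, which together held 142 M reads (megareads) of named genes. A count of 0 allows up to 3 counts, or 0.112 to 0.137 CPM per library and 0.0442 CPM over the controls and 0.0406 CPM over the TGF-β1 libraries. This limit covers counting error only. A second KRT23 entry on an alternate contig also had 0 reads.

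To compare levels between genes, the TPM values computed by the authors were used, which scale counts by gene length and by library. TPM has no TMM scaling, so a change between groups can differ in size from that in CPM. In controls the order by mean TPM was VIM, KRT8, KRT18, KRT19, KRT80, KRT7 and KRT81. With TGF-β1 the order was VIM, KRT8, KRT18, KRT80, KRT7, KRT19 and KRT81. KRT19 thus moved from above KRT80 and KRT7 to below both. Within each group, the TPM ranges of neighbours in the order did not overlap.

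VIM measured 1398, 1497 and 1567 TPM in the controls and 2647, 2517 and 2253 TPM with TGF-β1. KRT8 measured 718, 739 and 711 TPM against 1091, 1067 and 967 TPM, and KRT18 468, 437 and 443 TPM against 640.2, 613 and 607 TPM. KRT19 measured 341, 326 and 308 TPM against 122, 114 and 118 TPM. These 4 genes were the most abundant filament genes of the list in untreated cells. KRT80 ranged from 188 to 198 TPM in the controls and from 202 to 206 TPM with TGF-β1, KRT7 from 34.2 to 38.6 TPM and from 162 to 174 TPM, and KRT81 from 1.35 to 1.57 TPM and from 3.22 to 4.50 TPM.

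The filament make-up was described from these TPM values without a test. All 54 keratin genes listed together gave 1810, 1788 and 1741 TPM in the controls and 2283, 2213 and 2103 TPM with TGF-β1. All TGF-β1 sums were above the control sums. The type II sums were also apart, with 951, 976 and 942 TPM in the controls and 1484, 1453 and 1342 TPM with TGF-β1. The type I chains gave 859, 812 and 799 TPM against 799.5, 761 and 761 TPM, and here the groups overlapped. This overlap rested on TGF-β1 replicate 1 at 799.5 TPM against control replicate 3 at 798.8 TPM.

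The ratio of type II to type I keratin mRNA went from 1.16 ± 0.0489 to 1.84 ± 0.0739 (SD, n = 3). It was 1.11, 1.20 and 1.18 in the controls and 1.86, 1.91 and 1.76 with TGF-β1, so the groups lay apart. Within the type I chains, KRT18 made up 54.6% ± 0.805 in controls and 80.1% ± 0.415 with TGF-β1, and KRT19 39.4% ± 0.809 and 15.3% ± 0.228. KRT18 thus took the larger part of a type I total that overlapped between groups. Within the type II chains, KRT8 held 75.5% ± 0.166 and 73.0% ± 0.828, KRT80 20.2% ± 0.235 and 14.3% ± 0.656, and KRT7 3.76% ± 0.294 and 11.8% ± 0.255.

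**Figure D2:**
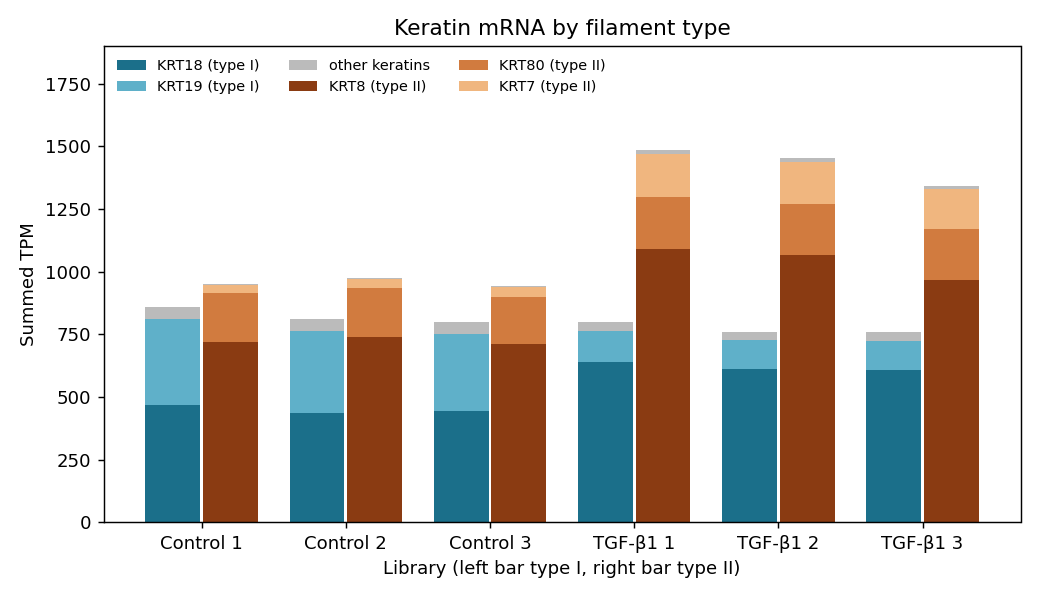
Summed TPM of the type I chains (left bar) and type II chains (right bar) in each library, split by gene, with all keratins not named in the legend in grey. The type II bars are taller in the 3 TGF-β1 libraries (1342 to 1484 TPM) than in the controls (942 to 976 TPM), while the type I bars overlap in height and change in the share of KRT19.

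The KRT8 to KRT18 ratio was 1.53, 1.69 and 1.61 in the controls and 1.70, 1.74 and 1.59 with TGF-β1. The groups overlapped, with means of 1.61 ± 0.0781 and 1.68 ± 0.0767. The KRT7 to KRT8 ratio, in contrast, went from 0.0498 ± 0.00398 to 0.162 ± 0.00527 without overlap. The KRT19 to KRT7 ratio was 9.96, 9.31 and 7.97 in the controls and 0.701, 0.678 and 0.725 with TGF-β1, so KRT19 mRNA was the more abundant of the pair in every control and the less abundant in every TGF-β1 library.

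VIM mRNA divided by summed keratin mRNA was 0.772, 0.838 and 0.900 in the controls and 1.16, 1.14 and 1.07 with TGF-β1. The ratio was below 1 in all controls and above 1 in all TGF-β1 libraries, with means of 0.837 ± 0.0638 and 1.12 ± 0.0457. Both terms of this ratio were higher in every TGF-β1 library than in any control.

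**Figure D3:**
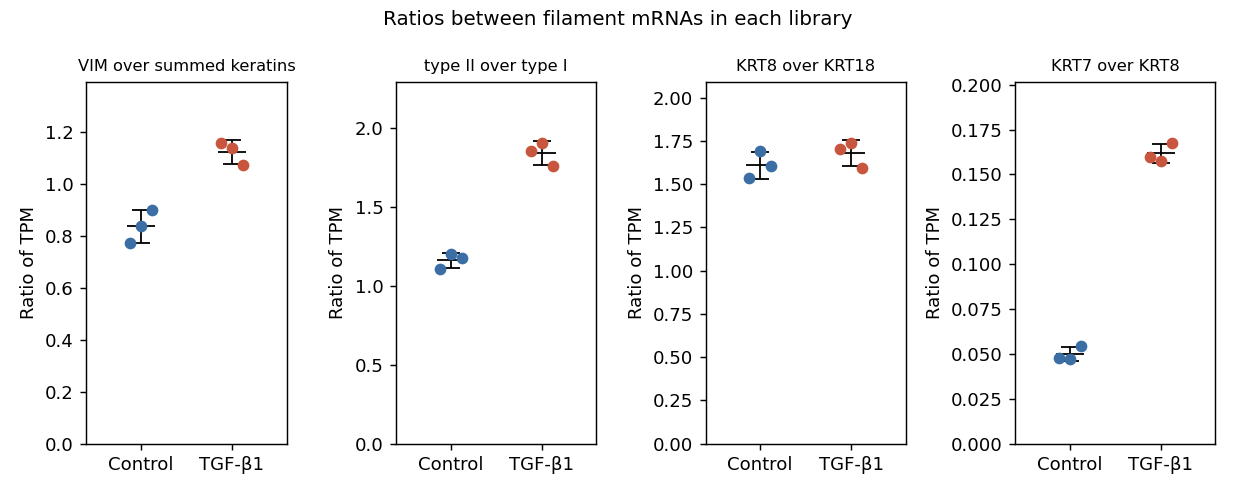
Ratios of TPM in each library (points), with black bars for the mean ± SD, for controls (blue) and TGF-β1 (red), on axes that start at 0. The VIM to keratin, type II to type I and KRT7 to KRT8 ratios lie apart between groups, while the KRT8 to KRT18 ratios, 1.53 to 1.74 over all libraries, overlap.

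The other keratins were mostly absent. Of the 54 keratin genes listed, 36 had 0 reads in all libraries, namely 20 of 28 type I and 16 of 26 type II genes, and 4 more had 1 to 20 reads. Among the 45 keratins that are not members, 5 could be tested, of which 1 was higher, 2 were lower and 2 were not called. Their median log2 fold change was 0.21. They held 2.94% ± 0.0255 of keratin TPM in the controls and 2.05% ± 0.0739 with TGF-β1.

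KRT79, a type II keratin known from hair follicle ducts, measured 1.28, 0.818 and 1.11 CPM in the controls and 5.26, 4.84 and 3.92 CPM with TGF-β1. Its groups did not overlap (log2 fold change 2.13 ± 0.21, edgeR adjusted p = 1.1e-05). KRT15, a type I keratin of basal and stem-like epithelial cells, measured 2.66, 3.72 and 2.26 CPM against 0.883, 1.08 and 1.29 CPM, with every control higher (-1.42 ± 0.24, adjusted p = 0.000656). KRT15 and KRT19 are both on the minus strand, with 1692 bases between them. KRT10, the type I keratin of suprabasal epidermis, fell by less, from 29.5 ± 1.35 to 24.0 ± 2.16 CPM (-0.29 ± 0.08, adjusted p = 0.0100). The antisense entry KRT10-AS1, on the opposite strand, had 755 reads in the controls and 711 with TGF-β1, beside 2075 and 1713 for KRT10. Exon bases shared by the 2 entries were not examined, and the strand setting is not known.

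Outside the keratins, 12 of 15 other intermediate filament genes, lamins included, could be tested, of which 3 were higher, 6 lower and 3 not called. Their median log2 fold change was -0.26, against 0.65 for the members. NEFM, a neurofilament gene, went from 0.711 ± 0.124 to 1.67 ± 0.325 CPM (log2 fold change 1.23 ± 0.24, edgeR adjusted p = 0.00172). LMNA, which encodes the A-type nuclear lamins, went from 178 ± 11.7 to 114 ± 5.35 CPM (-0.64 ± 0.06, adjusted p = 1.3e-05), and LMNB2, a B-type lamin gene, from 320 ± 19.8 to 393 ± 13.5 CPM (0.30 ± 0.06, adjusted p = 0.0021). NES, which encodes nestin, a partner of vimentin in progenitor cells, went from 110.2 ± 6.74 to 92.4 ± 4.29 CPM (-0.25 ± 0.06, adjusted p = 0.0068). NES therefore fell in the libraries in which VIM rose.

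**Figure D4:**
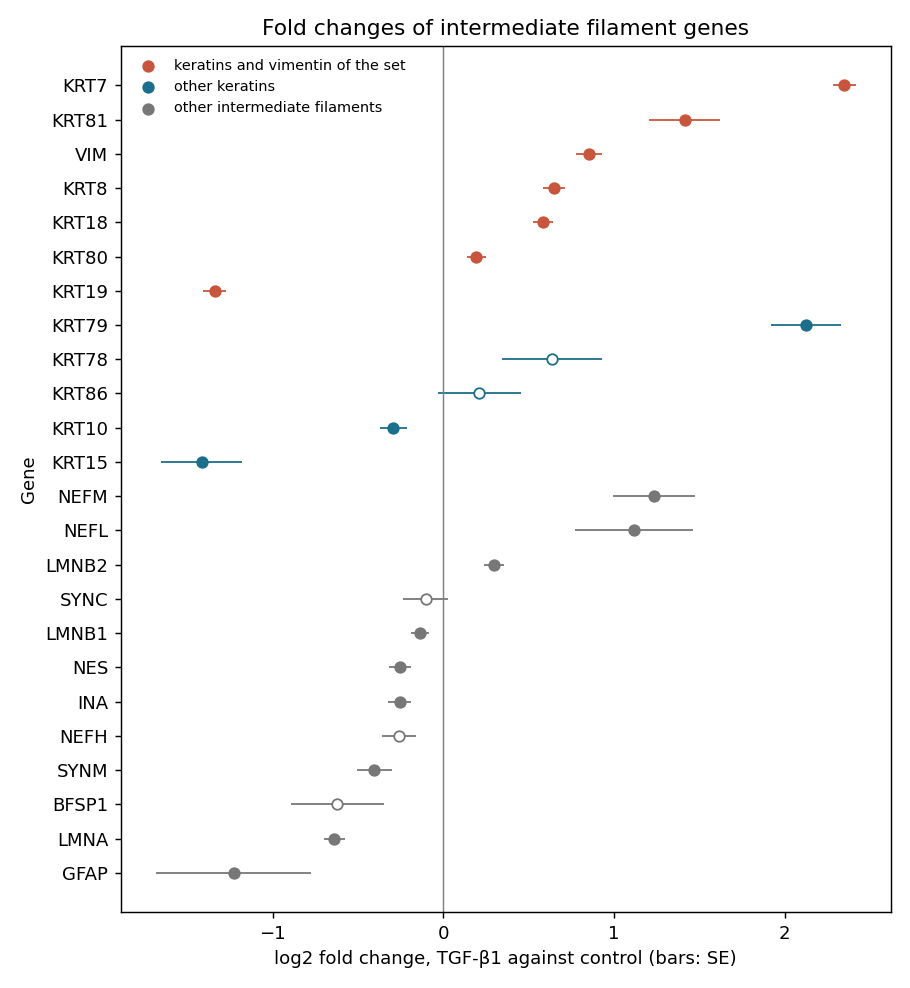
Log2 fold changes (TGF-β1 against control, bars SE) of all intermediate filament genes tested, with filled circles for genes called at an adjusted p under 0.05 and open circles for genes not called. KRT7 at 2.35 and KRT79 at 2.13 are the largest rises, and KRT15 at -1.42 and KRT19 at -1.34 the largest falls among the keratins.

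Keratin and vimentin filaments are tied to junctions and to other cables by plakins. Of 7 plakin genes, 6 were tested, of which 2 were higher, 2 lower and 2 not called. DSP encodes desmoplakin, the plakin that attaches keratin filaments to desmosomes, the spot-like anchors between epithelial cells. It measured 179, 174 and 172 CPM in the controls and 433, 580 and 590 CPM with TGF-β1. All TGF-β1 libraries were above the controls, with replicate 1 the lowest of them (log2 fold change 1.61 ± 0.11, edgeR adjusted p = 9.13e-06). EVPL, which encodes envoplakin, went from 58.4 ± 2.42 to 109.6 ± 1.26 CPM (0.91 ± 0.05, adjusted p = 2.3e-07). The spectraplakin genes DST and MACF1 fell, DST from 633 ± 35.4 to 323 ± 79.0 CPM (-0.97 ± 0.20, adjusted p = 0.0132) and MACF1 from 756 ± 23.9 to 453 ± 88.4 CPM (-0.74 ± 0.14, adjusted p = 0.00527). TGF-β1 replicate 1 was the lowest library for both, at 233 CPM for DST and 351 CPM for MACF1. Without that library the log2 fold changes were -0.79 and -0.60. PLEC, which encodes plectin, a linker of both keratin and vimentin, averaged 492 ± 30.2 and 508 ± 6.32 CPM and was not called (0.04 ± 0.06, adjusted p = 0.56).

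Among 14 desmosome genes, 9 were tested, of which DSP was the 1 called higher, 4 were lower and 4 were not called, with a median log2 fold change of -0.23. The lower genes were the plakophilin genes PKP3 (-0.86 ± 0.18) and PKP2 (-0.86 ± 0.07), the cadherin gene DSC3 (-0.56 ± 0.08) and PERP (-0.37 ± 0.06), a desmosomal membrane protein gene. The desmosomal cadherin gene DSG2 (log2 fold change 0.06 ± 0.06) and JUP, which encodes plakoglobin (-0.04 ± 0.08), were not called. DSP thus rose while the genes of several of its desmosomal partners fell or were not called.

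Of the 6 genes of hemidesmosomes, which anchor keratin filaments to the basement membrane, 1 was higher, 3 were lower and 2 were not called, with a median log2 fold change of -0.46. ITGB4, the β4 integrin that recruits plectin, measured 6.25, 6.62 and 6.09 CPM in the controls and 2.19, 1.82 and 2.15 CPM with TGF-β1. The groups lay far apart (-1.62 ± 0.14, edgeR adjusted p = 4.2e-06). Its partner gene ITGA6 was not called (0.16 ± 0.11, adjusted p = 0.28). CD151, a tetraspanin gene, was the 1 higher (0.40 ± 0.07, adjusted p = 0.000703).

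**Figure D5:**
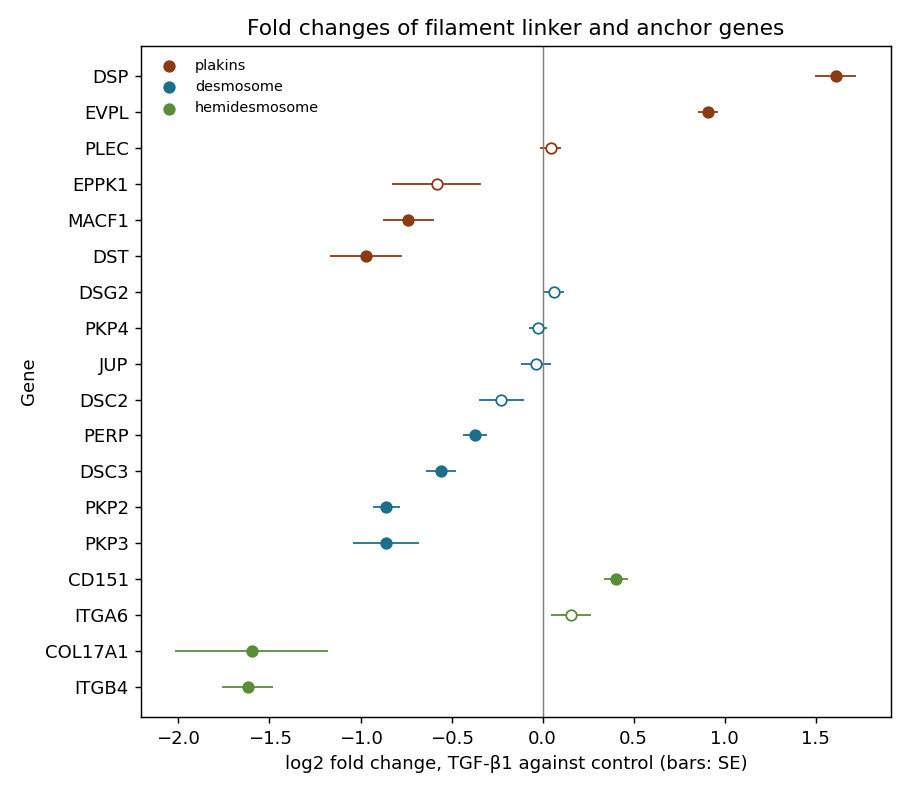
Log2 fold changes (TGF-β1 against control, bars SE) of the plakin, desmosome and hemidesmosome genes tested, with open circles for genes not called. DSP also belongs to the desmosome list, and DST and PLEC to the hemidesmosome list, each drawn once under plakins. DSP at 1.61 lies at the upper end and ITGB4 at -1.62 at the lower end.

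Genes of the cornified envelope, which accompany squamous differentiation and its keratins, were nearly absent. Of 13 listed, 9 had 0 reads in all libraries and 2 were tested. FLG, which encodes the keratin-bundling protein filaggrin, had 89 reads in the controls and 6 with TGF-β1 (log2 fold change -3.82 ± 0.42, edgeR adjusted p = 3.2e-05). SFN, the 14-3-3σ gene, was called higher (0.45 ± 0.14, adjusted p = 0.0243), but the call was lost without each of the 3 control replicates and without TGF-β1 replicate 1, at adjusted p of 0.0615 to 0.0905.

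Markers of other cell types were compared with the filament genes in the same libraries. The 9 epithelial markers summed to 452 to 486 CPM in the controls and 241 to 284 CPM with TGF-β1. Most of both sums came from CLDN1, at 399 and 192 CPM on average. Of the 4 tested, CLDN1 and EPCAM were lower and none was higher. The other 2, CLDN4 and TJP1, were not called. TJP1 stood at 28.4 CPM in TGF-β1 replicate 3, the library with the highest TGF-β1 sum, against 2.61 and 4.01 CPM in replicates 1 and 2. The name TJP1 has 3 entries, of which only the one on a primary chromosome is given here. How reads were divided among these entries was not examined. GRHL2 was at 0 in all libraries, and CDH1, OCLN, CLDN7 and ESRP1 were each under 0.2 CPM on average in both groups. The 12 proximal tubule markers summed to 314 to 348 CPM and 197 to 228 CPM, mostly from PAX8, with 6 tested. Of these, the water channel gene AQP1, from 0.396 to 1.72 CPM, and the endocytic receptor gene CUBN, from 0.485 to 0.861 CPM, were higher, PAX8, GGT1 and MME were lower and SLC5A2 was not called. The 7 distal nephron markers summed to 0.975 to 1.75 CPM and 0.869 to 1.19 CPM, with UMOD at 0. The 8 fibroblast markers summed to 58.9 to 68.7 CPM and 58.3 to 59.6 CPM, mostly from LUM, and 3 were tested. Of these, PDGFRB, from 0.551 to 5.79 CPM, and COL6A3, from 0.112 to 1.55 CPM, were higher and LUM was lower, while PDGFRA, DCN, POSTN, ACTA2 and FAP were each under 0.2 CPM on average in both groups. The 6 leukocyte markers summed to 95.4 to 104 CPM and 61.6 to 85.4 CPM, mostly from CD68, with CD3E at 0. PTPRC had 2 reads in each group, and the 2 leukocyte markers tested, CD68 and CD14, were both lower. The 6 endothelial markers summed to 0.940 to 1.68 CPM in the controls and to at most 0.143 CPM with TGF-β1. The 1 tested, CDH5, was lower, with 62 reads in the controls and 0 with TGF-β1. The part of these markers in the values of VIM and the keratins was not tested.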

How the data were processed

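Poly(A) RNA was captured on oligo(dT) beads and copied with random hexamers. The submitters' processing notes name CASAVA, featureCounts 2.0.1, DESeq2 1.16.1 and hg38 without giving their roles, and the aligner and the strand setting are not given in the sources used here. Per the file headers, the authors deposited raw counts per gene and, computed from them, TPM and FPKM values, the latter used only as an alternative for the ratios. Each table held 7 records broken over lines, which were rejoined, and 598 loci without a name (0.396% to 0.464% of counts) were left out.

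Groups followed the treatment label of each library. Named entries passing filterByExpr of edgeR 4.0.16 were scaled by TMM and compared with the quasi-likelihood F test with robust dispersion, two-sided, with Benjamini-Hochberg adjustment over 14860 genes. CPM used the TMM-scaled library size, and the SE is the log2 fold change over the square root of F. Depth was 21.9 to 26.9 M (megacounts). Intervals and limits cover counting error only, since PCR copies could not be told from separate molecules. Exon overlaps, shared runs of 150 bases and promoter motifs were found by exact matches.

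Alternatives were DESeq2 1.42.0, limma-voom (limma 3.58.1), other scalings and count filters, a test against 2-fold (glmTreat), summed entries of a name, the replicate number as a block, and fits without 1 library. R 4.3.3, Python 3.11.15, pandas 2.3.3 and scipy 1.17.1 were used. The members and lists were chosen with earlier results of these data known. Named besides the members are, in each list, genes called with at least a 2-fold change and a mean of at least 1 CPM in a group, otherwise the largest called rise and fall, and genes whose reads bear on a member. KRT10, KRT10-AS1, LMNA, LMNB2, NES, EVPL, DST, MACF1, PLEC, ITGA6, CD151, SFN and the desmosome genes other than DSP were named after their values were seen, and so were the markers singled out.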

Additional observations from a re-analysis of the deposited data

How the results depend on the processing

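Among the 7 tested members, KRT7 and KRT19 kept direction and call under all 15 alternatives, with log2 fold changes of 2.24 to 2.39 and -1.45 to -1.29. VIM (0.75 to 0.92), KRT8 (0.54 to 0.70) and KRT18 (0.48 to 0.63) lost their call only when tested against a 2-fold change (glmTreat), as did KRT81 (1.26 to 1.50), which could not be tested with a mean of at least 50 counts. KRT80 ranged from 0.09 to 0.21. No direction reversed. The 2-fold test left 2 members called, in place of 7, and 12 calls in the 7 other lists (a gene in 2 lists counted in each), in place of 35. This test asks for a larger change by construction. The 7 lists include the 8 TGF-β target genes chosen as a check of the treatment, all called in the main fit. Among these targets only SKIL lost its call, in 1 alternative. Outside the targets, KRT79, DSP, ITGB4 and FLG kept their call in every alternative that tested them. Leaving out 1 library at a time left 6 to 7 members and 31 to 35 list entries called.

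Same-numbered control and TGF-β1 libraries had deviations from the group means that correlated at 0.106, -0.0136 and 0.0926. Differently numbered ones correlated at -0.158 to 0.0857. These values do not settle whether the numbers pair the libraries, and the main fit used no pairing. A replicate block left 7 members and 35 list entries called. Calls of the low or small changes of GFAP, NEFL, LMNB1 and SFN were lost in 5 to 10 alternatives each, for which the cause was not tested. FPKM in place of TPM gave the same ratios by construction. Adding keratin pseudogene entries was not run, since the files used here list none.

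Depth limits KRT5, KRT17 and KRT23, for which a level under the limit of 3 counts was not detectable, and KRT81, with 18 to 67 reads per library.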

Other observations

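By chromosome, a grouping made after the values were seen, 8 of the 27 keratin genes listed in the chromosome 12 cluster were tested, of which 6 were higher, 2 (KRT78 and KRT86) were not called and none was lower. Of the 27 in the chromosome 17 cluster 3 were tested, KRT10, KRT15 and KRT19, and all 3 were lower. The fall of KRT10 was small, at a log2 fold change of -0.29. Over all genes tested, 22.2% were called higher and 22.1% lower. The difference between the clusters was not tested. KRT18, which was called higher, is a type I chain encoded in the chromosome 12 cluster. Of the other entries in these intervals, 1 was tested on chromosome 12, KRT7-AS, which was higher, and 1 on chromosome 17, which was not called.

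Below the count filter, 3 keratin genes had over 20 reads in all. KRT3, a type II corneal keratin, had 5 reads in the controls and 42 with TGF-β1, KRT34, a type I hair keratin, 6 and 22 reads, and KRT16, a type I keratin of activated epidermis, 18 and 4 reads. These counts were not tested.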
